A study of Mus musculus with 4 samples.

Results

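The unfolded protein response was examined here through 10 genes chosen by name: Hspa5, Ddit3, Atf4, Xbp1, Ern1, Eif2ak3, Atf6, Dnajb9, Herpud1 and Sdf2l1. Each matched 1 row among the 22565 protein-coding rows of the deposited table, and all 10 exceeded 1 FPKM (fragments scaled by transcript length and library total) in each of the 4 libraries, so no low-value filter affected them. RNA came from alveolar epithelial type II (AT2) cells, the surfactant-secreting cells of the lung, which were sorted by flow cytometry from untreated 6-month-old mice. The wild-type (WT) group and the group labelled knockout (KO) hold 2 libraries each. For KO replicate 1 the genotype field reads Fbxo45 knockout, for KO replicate 2 it reads Fbxo46 knockout, the titles place both in 1 KO group, and the growth protocol speaks of Fbxo45-cKO mice only. The sources used here do not give the strain, the sex, the promoter behind any recombinase, the deleted exons, or whether replicates are different animals. The p-values therefore reflect only how far these libraries differ from each other, and that spread may be technical.

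Proteins destined for secretion fold in the endoplasmic reticulum (ER), and the unfolded protein response adjusts folding capacity to that load. Its sensors sit in the ER membrane: IRE1 (Ern1) splices Xbp1 mRNA into the form that encodes an active transcription factor, PERK (Eif2ak3) phosphorylates the initiation factor eIF2 and thereby favours translation of Atf4, and ATF6 is cut in the Golgi to free a transcription factor. The targets include the chaperone BiP (Hspa5), its co-chaperones and the machinery that removes misfolded proteins. AT2 cells carry a heavy secretory load because they make surfactant proteins, and mutant surfactant protein C is known to activate the response. Splicing, phosphorylation and cleavage do not appear in a table of values per gene, so the data bear on mRNA levels alone.

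Promoter sequence of the 10 genes was searched for exact copies of the classical ER stress response element (ERSE) and of related elements. The RefSeq promoter table (GRCm38.p6, 250 bases before to 50 after each start) had 9 of the 10; Atf6 was not matched. An ERSE, written CCAAT, then 9 bases, then CCACG and searched on both strands, was present in Hspa5 alone of these 9 and in 0.119% of all 32851 promoters. The ERSE-II, written ATTGG, then 1 base, then CCACG, was present in Herpud1 alone and in 0.0365% of all promoters. The core TGACGTG of the UPR element was found in Hspa5 alone (2.01% of all promoters) and did not overlap its ERSE. The C/EBP-ATF element, TGATG, then 1 base, then AAT, was found in none of the 9 (0.965% of all promoters). A match describes letters and is not a measured binding site. Copies with a changed base, or outside these bases, were not searched for, so a gene without a match may still carry an element. The 200 bases before each start are shown on the plus strand, at chr2:34771890-34772089 for Hspa5 and chr8:94386229-94386428 for Herpud1. They are printed because these promoters carry the ERSE and the ERSE-II, which are in capitals; the UPR element core of Hspa5 is in the lower-case part.
Hspa5: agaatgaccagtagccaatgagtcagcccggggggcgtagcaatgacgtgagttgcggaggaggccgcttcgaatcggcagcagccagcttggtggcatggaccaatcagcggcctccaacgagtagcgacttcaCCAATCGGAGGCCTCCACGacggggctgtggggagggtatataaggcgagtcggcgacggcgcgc
Herpud1: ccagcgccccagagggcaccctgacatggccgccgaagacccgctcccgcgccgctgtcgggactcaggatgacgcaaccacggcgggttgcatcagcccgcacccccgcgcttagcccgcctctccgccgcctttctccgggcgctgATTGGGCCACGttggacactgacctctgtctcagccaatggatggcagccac

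The 4 libraries held 4167116 and 8200175 recovered fragments in WT replicates 1 and 2, and 9507432 and 7066421 in KO replicates 1 and 2. Fbxo45, the gene named for deletion, was at 4.6 and 5.91 FPKM in the WT pair, against 4.41 and 7.58 FPKM in the KO-labelled pair, and Fbxo46 was at 3.79 to 4.8 FPKM in all 4, so neither separated the groups and every direction below is that of the library labels. All 12 AT2 markers passed the filter, and their summed level was 106596 FPKM in KO replicate 1 and 147666 to 158693 FPKM in the other 3 libraries, led by Sftpc and Lyz2. Sftpc alone was at 54458 FPKM in KO replicate 1 and at 87684 to 101544 FPKM in the other 3. The sum therefore mostly reflects this gene and does not describe the other markers. KO replicate 1 stood apart in 10 genes of fast skeletal muscle, led by Myl1 and Acta1: they summed to 1263 FPKM there and to between 0.544 and 10.5 FPKM elsewhere. Club cell markers, led by Cbr2 and Scgb1a1, summed to 4220 to 5916 FPKM. Of 9 macrophage markers, Cd68 stood highest (7.08 to 13.6 FPKM), Csf1r next (at most 0.817 FPKM), and 5, Marco and Adgre1 (listed as Emr1) among them, had no fragment in any library. Ciliated cell markers, led by Dynlrb2 and Tppp3, summed to 34.9 to 48.4 FPKM, endothelial markers, led by Esam and Egfl7, to 48.8 to 60 FPKM, and fibroblast and smooth muscle markers, led by Bgn and Dcn, to 74.5 and 28.6 FPKM in the WT pair, against 80.6 and 79.1 FPKM in the KO-labelled pair. Plasma cells are known for a strong unfolded protein response. Of 12 plasma and B cell markers 5 passed the filter and 2 had no fragment in any library. Derl3, whose values are given below, is also on this list. The list's highest genes were Sdc1 (219 FPKM or more), which epithelial cells also express, and Cd79b (13.2 to 19.7 FPKM). Immediate early genes of tissue dissociation, led by Jun and Dusp1, summed to 755 and 495 FPKM in the WT pair, against 656 and 499 FPKM in the KO-labelled pair. In such bulk RNA, fewer cells of a type and less RNA per cell cannot be told apart.

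Levels of the 10 genes spanned a wide range in these AT2 cells. Hspa5 stood highest, at a mean of 224 FPKM over the 4 libraries, followed by Herpud1 at 163, Xbp1 at 65.6, Atf4 at 61.3, Dnajb9 at 43.2, Ern1 at 22.2, Atf6 at 18.5, Eif2ak3 at 12.6, Ddit3 at 7.23 and Sdf2l1 at 5.15 FPKM. The order separates into 4 tiers whose ranges over libraries did not overlap: Hspa5 and Herpud1; Xbp1, Atf4 and Dnajb9; Ern1 and Atf6; and Eif2ak3, Ddit3 and Sdf2l1. Within a tier, the ranges of neighbours overlapped. Compared within each library, Hspa5 exceeded Herpud1, Atf4 exceeded Dnajb9, Ern1 exceeded Atf6 and Eif2ak3 exceeded Ddit3 in all 4. The order of Xbp1 and Atf4, and that of Ddit3 and Sdf2l1, changed between libraries. The mRNAs of all 3 sensors thus lay below those of Xbp1 and Atf4, the factors on which IRE1 and PERK act. Ddit3, which encodes the pro-apoptotic factor CHOP, was near the bottom. In GENCODE M21 (GRCm38), Hspa5 spans chr2:34771970-34777547, Atf4 chr15:80255184-80257541 and Ddit3 chr10:127290774-127296288 on the plus strand, and Dnajb9 spans chr12:44205559-44210326 and Ern1 chr11:106394650-106487852 on the minus strand.

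**Figure D1:**
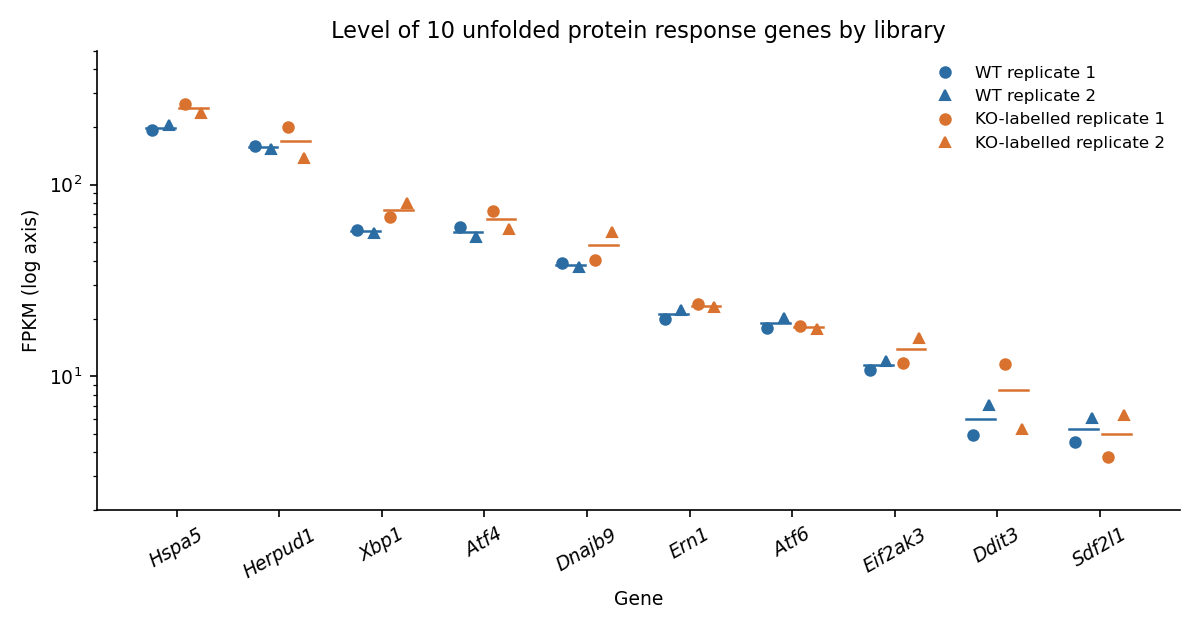
FPKM (log axis) of the 10 genes in each library, WT in blue and KO-labelled in orange, with circles for replicate 1, triangles for replicate 2 and short lines for group means. Hspa5 stands at 193 to 263 FPKM and Sdf2l1 at 3.76 to 6.27 FPKM, and the groups lie apart for Hspa5, Xbp1, Dnajb9 and Ern1.

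None of the 3 sensors passed the test, and their log2 differences lay between -0.07 and 0.24. Ern1 was at 20 and 22.1 FPKM in the WT pair, against 23.7 and 23.1 FPKM in KO replicates 1 and 2. Both KO-labelled values lay above both WT values, by a small margin. The log2 difference was 0.15 (limma SE 0.204, adjusted p = 0.969), whereas edgeR on fragments gave -0.02, so its direction is not fixed. Eif2ak3 was at 10.8 and 12 FPKM in the WT pair, against 11.8 and 15.9 FPKM in KO replicates 1 and 2. Only KO replicate 2 stood above WT, and the log2 difference was 0.24 (SE 0.249, adjusted p = 0.952). Atf6 was at 17.8 and 20.1 FPKM in the WT pair, against 18.3 and 17.7 FPKM in the KO-labelled pair. The groups overlapped, with a log2 difference of -0.07 (95% interval -0.59 to 0.45), which was 0.015 without WT replicate 2.

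Among the transcription factors downstream, the KO-labelled libraries differed from each other. Xbp1 was at 58.2 and 55.9 FPKM in the WT pair, against 67.7 and 80.4 FPKM in KO replicates 1 and 2. Both KO-labelled values lay above WT, with a mean 1.3 times as high (log2 difference 0.37, SE 0.198, adjusted p = 0.948). The fragment values did not follow: Xbp1 was at 119 and 113 CPM in WT, at 78.1 CPM in KO replicate 1 and at 158 CPM in KO replicate 2. The exact 95% counting intervals were 106 to 130 CPM over both WT libraries, 72.5 to 83.9 CPM in KO replicate 1 and 149 to 167 CPM in KO replicate 2. By fragments the KO-labelled libraries therefore lay on opposite sides of WT beyond counting error, and edgeR gave a log2 difference of 0.02. Atf4 was at 59.8 and 53.5 FPKM in the WT pair, against 73 and 58.8 FPKM in KO replicates 1 and 2. KO replicate 1 alone stood above WT, and the log2 difference was 0.21 (95% interval -0.31 to 0.72). Ddit3 was at 4.94 and 7.07 FPKM in the WT pair, against 11.6 FPKM for KO replicate 1 and 5.28 FPKM for KO replicate 2. KO replicate 1 was above all other libraries and KO replicate 2 was within the WT range. The log2 difference of Ddit3 was 0.36 (SE 0.4, adjusted p = 0.957), and without KO replicate 1 it was -0.14, the opposite direction. It rested on 18 and 53 fragments in WT and on 101 and 32 in KO replicates 1 and 2. The fragment share of KO replicate 1 (10.6 CPM, counting interval 8.65 to 12.9) exceeded the intervals of the other 3 libraries, the highest of which ended at 8.45 CPM. Atf4 and Ddit3 were thus highest in the library that also held muscle RNA. On FPKM so were Hspa5, Herpud1 and Ern1, while Xbp1, Dnajb9, Eif2ak3 and Sdf2l1 were highest in KO replicate 2 and Atf6 in WT replicate 2. The part of muscle RNA in these values was not tested.

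Among the targets, the chaperone genes Hspa5 and Dnajb9 had the more separated groups. Hspa5 was at 193 and 204 FPKM in the WT pair, against 263 and 237 FPKM in KO replicates 1 and 2. Both KO-labelled values exceeded both WT values, and the group means were 198 ± 7.52 and 250 ± 18.7 FPKM (SD, n = 2 each). The mean was 1.26 times as high, a log2 difference of 0.33 (SE 0.19, 95% interval -0.14 to 0.80, limma adjusted p = 0.948). Fragments gave the same order, with 467 and 510 CPM in WT and 671 and 588 CPM in KO replicates 1 and 2. No counting interval of a KO-labelled library reached a WT one for Hspa5, the nearest bounds being 526 CPM in WT and 570 CPM in KO. The edgeR log2 difference was 0.36 (adjusted p = 0.999). Over the 18 alternative settings the value for Hspa5 stayed between 0.20 and 0.41 and every adjusted p was 0.13 or more. Dnajb9, which encodes the co-chaperone ERdj4 that also binds IRE1, was at 38.9 and 37.2 FPKM in the WT pair, against 40.2 and 56.7 FPKM in KO replicates 1 and 2. The groups did not overlap, but KO replicate 1 was close to WT and KO replicate 2 well above it. The log2 difference was 0.32 (SE 0.236, adjusted p = 0.948). With KO replicate 2 left out, the difference was 0.08. By fragments Dnajb9 was at 79.2 and 76 CPM in WT and at 88.7 and 110 CPM in the KO-labelled libraries.

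Herpud1 and Sdf2l1 showed no such separation. Herpud1, which encodes an ER membrane protein of ER-associated degradation, was at 160 and 154 FPKM in the WT pair, against 199 FPKM for KO replicate 1 and 138 FPKM for KO replicate 2. The KO-labelled libraries stood on either side of WT, and the log2 difference was 0.08 (SE 0.238, adjusted p = 0.983). It was -0.18 without KO replicate 1. By fragments both KO-labelled libraries were lower, at 256 and 265 CPM against 279 and 276 CPM in WT, with overlapping counting intervals. Sdf2l1, which encodes a partner of ER chaperone complexes, was at 4.51 and 6.07 FPKM in the WT pair, against 3.76 and 6.27 FPKM in KO replicates 1 and 2. The groups overlapped on 21 to 56 fragments per library, with a log2 difference of -0.09 (95% interval -0.89 to 0.72). Without KO replicate 1 the value was 0.22, and without WT replicate 2 it was 0.10, both in the opposite direction.

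None of the 10 genes passed the test between KO-labelled and WT libraries. Limma's adjusted p was 0.948 or more for each, 0 had an unadjusted p under 0.05, and the background was the same, with 0% of 11055 tested genes called (4.84% at an unadjusted p under 0.05, 2.68% higher and 2.16% lower). edgeR called 0 of the 10 and 0% of 11705 genes, and DESeq2 called 0 of the 10 and 0.0563% of 12428 genes. Of the 10 genes, 8 had a positive and 2 a negative FPKM difference, against 54.1% positive and 45.9% negative among all tested genes. Their median log2 difference was 0.23, against 0.03 over all tested genes, and with edgeR it was 0.10 against 0.02, with 6 of 10 positive. On FPKM, 4 of 10 had both KO-labelled values above both WT values, where 20% of tested genes did, and 0 had both below, where 15.1% did (35.1% in either direction). On fragments these counts were 3 of 10 above (16.5% of genes) and 1 of 10 below (16.9%). Hspa5 and Dnajb9 were above in both units, as were 11.8% of the genes tested in both, and 0 of the 10 were below in both (11.3%). The p-values that miss the threshold do not show that the groups are alike: the interval of Hspa5 reached from -0.14 to 0.80.

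**Figure D2:**
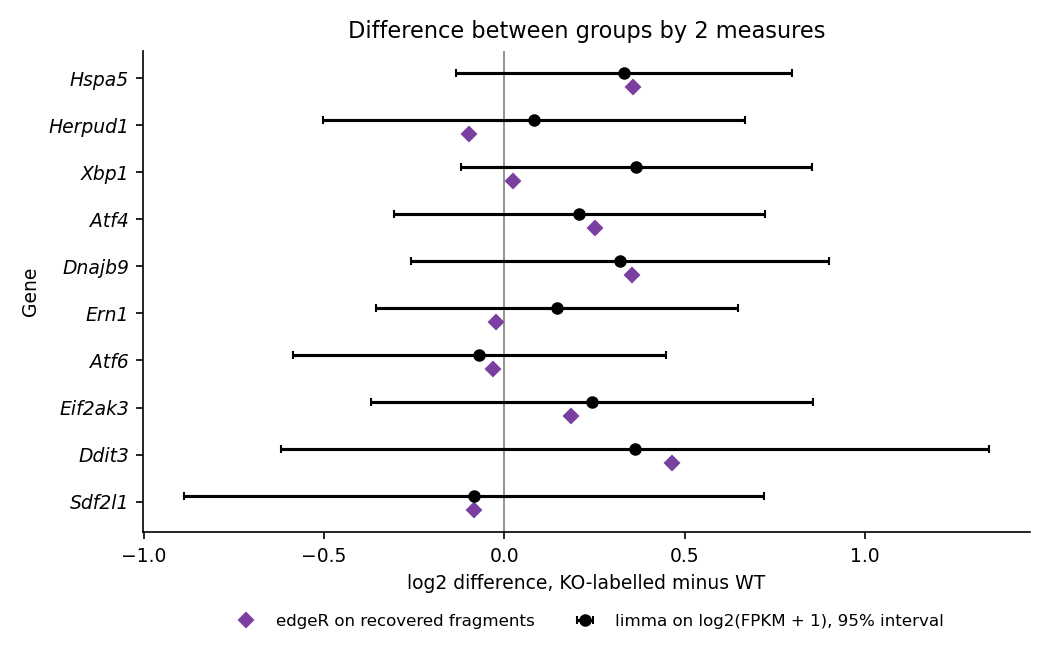
The log2 difference, KO-labelled minus WT, of each gene from limma on log2(FPKM + 1) (black points, bars are 95% intervals) and from edgeR on recovered fragments (purple diamonds). All 10 intervals cross 0, and the measures differ most for Xbp1 (0.37 and 0.02).

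The deposited FPKM and count columns moved apart for Xbp1 and Herpud1 in KO replicate 1. FPKM per CPM, which depends on the transcript length and library total assumed, was 0.49 to 0.509 for Xbp1 in 3 libraries and 0.867 in KO replicate 1. For Herpud1 it was 0.522 to 0.572 in 3 libraries and 0.777 in KO replicate 1. The highest over the lowest value was 1.77 for Xbp1 and 1.49 for Herpud1, and at most 1.21 for the other 8 genes. Among genes with at least 20 fragments in every library, the ratio exceeded 1.5 in 1 of 9 of these genes (Xbp1; Ddit3 had too few fragments) and in 19.4% of 9528 genes, with a median of 1.18. GENCODE M21 lists 3 protein-coding transcripts for Xbp1 (chromosome 11, 5520659 to 5525893, plus strand), of 897 to 2129 bases, and 3 for Herpud1 (chromosome 8, 94386438 to 94395377, plus strand), of 823 to 1952 bases. The table gives Xbp1 the same locus entry as 11 other genes, among them the muscle enzyme Pgam2, named here after its values were seen. The part of transcript assignment, this shared locus and the muscle RNA in the Xbp1 value of KO replicate 1 was not tested, and its FPKM is uncertain. Dnajb9 shares its entry with Nrcam and Pnpla8. Ddit3 shares its entry with Mars, which overlaps it on the opposite strand, and no source used here says whether counting used strand. Sequence shared with other genes was low: 1.21% of 100-base stretches for Dnajb9, 0.377% for Ddit3 and 0% for the other 8.

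**Figure D3:**
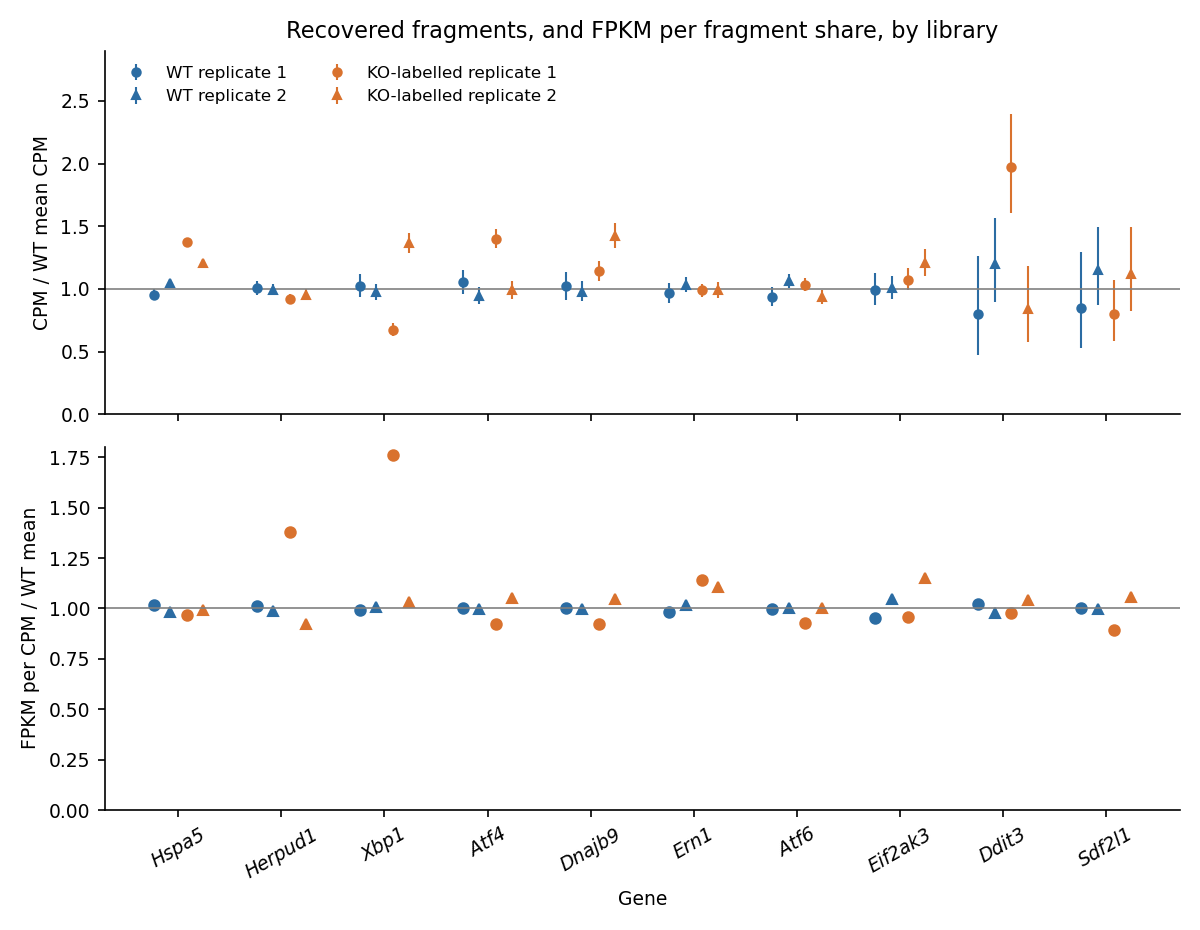
Top, CPM of each gene divided by its WT mean, with exact 95% counting intervals as bars; bottom, FPKM per CPM divided by its WT mean, for the same libraries and symbols. In KO replicate 1, Xbp1 is below WT in CPM (78.1 against 119 and 113) while its FPKM per CPM is raised (0.867).

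The other genes of the pathway were grouped into 8 lists, and none held a gene past the threshold. The list of the PERK and ATF4 arm had 20 of 24 genes tested, 13 higher and 7 lower, with a median log2 difference of 0.03. Its smallest unadjusted p values belonged to genes of both directions. Cebpb, a bZIP factor, was at 17.1 and 10.3 FPKM in the WT pair, against 3.06 and 7.62 FPKM in KO replicates 1 and 2 (log2 difference -1.27, SE 0.44). Cth, an enzyme of cysteine synthesis, was at 18.3 and 23.5 FPKM in the WT pair, against 39.1 and 29.9 FPKM (0.70, SE 0.246). Ppp1r15a, whose product GADD34 directs eIF2 dephosphorylation, was at 20.6 and 15.1 FPKM in the WT pair, against 27.8 and 25.3 FPKM (0.56). The amino acid transporter Slc7a5 was at 14.8 and 9.96 FPKM in the WT pair, against 9.19 and 7.78 FPKM. Limma's adjusted p was 0.948 for each of these genes.

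The IRE1 and XBP1 arm had 19 of 20 genes tested, 10 higher and 9 lower, with a median of 0.02. Sec61g, a subunit of the translocation channel, was at 33.9 and 32.9 FPKM in the WT pair, against 48.3 and 47.3 FPKM in the KO-labelled pair (log2 difference 0.51, SE 0.19). Sec61b, another subunit, was at 85.2 and 91.3 FPKM in the WT pair, against 42.4 FPKM for KO replicate 1 and 83.6 FPKM for KO replicate 2 (-0.56, SE 0.336). The difference of Sec61b was -1.04 without KO replicate 2, a fit with 1 KO-labelled library that is assumed to vary like the WT pair. Sec11c, of the signal peptidase, had a difference of -0.39 and Traf2, an adaptor that binds IRE1, of -0.38. The subunits of 1 channel thus stood on both sides of 0. Relative to the WT mean, the list median of KO replicate 1 was -0.27 and that of KO replicate 2 was 0.17.

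The ATF6 arm had all 14 genes tested, 10 higher and 4 lower, with a median of 0.13. Both KO-labelled values lay above WT in 8 of the 14 and below in 1, where 20% and 15.1% of all tested genes did. On fragments these counts were 6 and 3 of 14, where 16.5% and 16.9% of genes did, and the median was 0.07. Hsp90b1, the ER form of HSP90 also called GRP94, was at 175 and 211 FPKM in the WT pair, against 269 and 240 FPKM in the KO-labelled pair (log2 difference 0.40, SE 0.205). Mbtps2, the site-2 protease that cuts ATF6, was at 5.06 and 5.57 FPKM in the WT pair, against 7.92 and 9.05 FPKM (0.59, and 0.23 with edgeR). Manf, a secreted ER stress factor, was at 66.8 and 65.4 FPKM in the WT pair, against 46.5 and 48.3 FPKM (-0.47, SE 0.186). Derl3 was at 0.172 and 0.87 FPKM in the WT pair, against 1.23 and 1.6 FPKM, and it passed the filter through the KO-labelled libraries alone, so its direction was set by the filter. Without Derl3, 9 of 13 genes were higher, 7 lay above WT and 1 below on FPKM, 5 above and 3 below on fragments, and the median was 0.13 (0.04 with edgeR). Both Manf and Hsp90b1 are textbook targets of the response, and they stood on opposite sides of 0.

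ER chaperones and oxidative folding genes had 28 of 29 genes tested, 18 higher and 10 lower, with a median of 0.05. Canx, the lectin chaperone calnexin, was at 107 and 113 FPKM in the WT pair, against 199 and 138 FPKM in KO replicates 1 and 2 (log2 difference 0.59, SE 0.238, and 0.28 with edgeR). Pdia3, its disulfide isomerase partner, was at 93.2 and 106 FPKM in the WT pair, against 133 and 130 FPKM (0.40 in both measures). Dnajc10, a disulfide reductase, had a difference of 0.36 on FPKM and of -0.10 with edgeR, so its direction is not fixed. Both KO-labelled values lay above WT in 7 of 28 and below in 3, against 20% and 15.1% of all tested genes, so the share above is near that background. Selk, the selenoprotein K gene, had a difference of -1.45 without KO replicate 2 and was named after its values were seen. It was at 33.1 and 29.5 FPKM in the WT pair, against 10.8 FPKM for KO replicate 1 and 38.4 FPKM for KO replicate 2.

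Genes of ER-associated degradation split evenly, with 13 of 26 tested genes higher, 13 lower and a median of 0.01. Man1b1, an ER mannosidase, was at 20.2 and 19.3 FPKM in the WT pair, against 48.2 and 25.6 FPKM in KO replicates 1 and 2 (log2 difference 0.80, SE 0.325). With edgeR the difference of Man1b1 was 0.09, and with limma without KO replicate 2 it was 1.24. Vimp, which encodes selenoprotein S, was at 75.3 and 87.6 FPKM in the WT pair, against 116 and 95.4 FPKM, and Aup1 had a difference of -0.29. Derl3 also belongs to this list, and without it 12 of 25 genes were higher. The eIF2 kinases, eIF2 and eIF2B had 6 of 12 genes higher and a median of -0.01. Within it, Eif2s1, the subunit that PERK phosphorylates, was at 8.72 and 8.88 FPKM in the WT pair, against 10.1 and 15.7 FPKM, and Eif2s2 at 10 and 13.1 FPKM in the WT pair, against 15.7 and 14.7 FPKM. Eif2b4 and Eif2b2 had differences of -0.33 and -0.32 with overlapping groups. ER stress cell death genes had 7 of 12 tested, 4 higher and 3 lower, with a median of 0.01 (-0.16 with edgeR). Bbc3, the p53-inducible BH3-only gene also called Puma, was at 5.89 and 5.43 FPKM in the WT pair, against 2.26 and 4.95 FPKM. Bcl2l11, Map3k5 and Bax had overlapping groups and differences from -0.27 to 0.28. Other ER-anchored bZIP factors had 5 of 6 tested, with Creb3l1 at 19.2 and 16.5 FPKM in the WT pair, against 16.2 and 8.11 FPKM. Atf6b, Creb3 and Creb3l2 had differences of 0.24, 0.39 and -0.06, and with edgeR these were -0.25, -0.20 and 0.02.

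**Figure D4:**
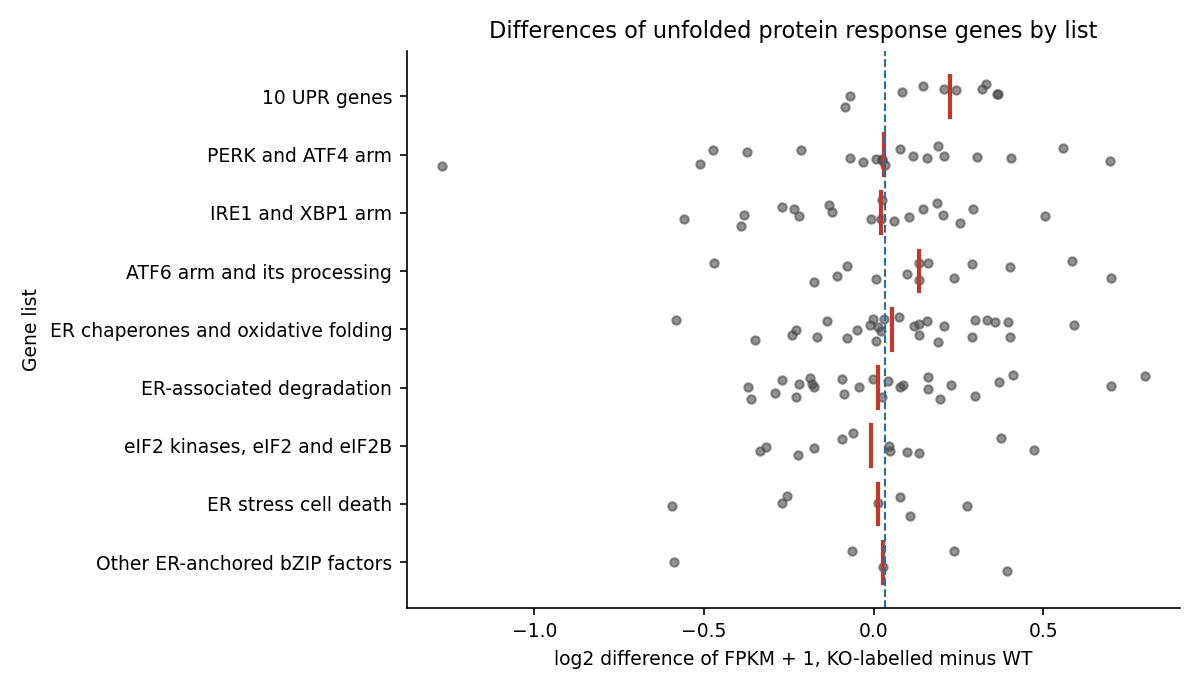
The log2 difference on the log2(FPKM + 1) scale of each tested gene (points, spread vertically for visibility) in the 10 named genes and the 8 other lists, with list medians in red and the median of all tested genes as a dashed blue line. The median of the 10 genes is 0.23 and that of the ATF6 arm 0.13, while the other lists lie between -0.01 and 0.05.

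Genes with the ERSE of the Hspa5 promoter or the ERSE-II of the Herpud1 promoter were then compared across the table. An ERSE or ERSE-II was found in the promoters of 49 genes, of which 33 matched 1 row and 22 were tested. Derl3 is 1 of these 22 and is left out of the counts, since the filter set its direction. Of the other 21, 14 were higher and 7 lower, with a median log2 difference of 0.08 (-0.02 with edgeR). Of 13 with an ERSE 7 were higher, with a median of 0.01 (0.04 with edgeR). Of 8 with an ERSE-II alone 7 were higher on FPKM. Their median was 0.20 on FPKM but -0.09 with edgeR, so that direction is not fixed. Among all tested genes 54.1% were higher on FPKM. The 22 fell evenly into 11 genes of the pathway lists, Derl3 among them, and 11 others. Of the remaining 10 pathway genes 9 were higher on FPKM and 1, Syvn1, lower, with a median of 0.21 (0.11 with edgeR). With edgeR not only Syvn1 (-0.42) but also Dnajb11 (-0.13) and Herpud1 (-0.10) were lower. Both KO-labelled values lay above WT in 4 of these 10 and below in 0, against 20% and 15.1% of all tested genes. Of the 11 others 5 were higher and 6 lower, with a median of -0.06, and 1 lay above WT and 3 below. No gene of either set passed the threshold, and the counts are a description. Of the 10 pathway genes, the chaperone genes Hspa5, Hsp90b1, Calr and Canx were those above WT in both KO-labelled libraries on FPKM. Each was highest in KO replicate 1, the library with muscle RNA, and the part of that RNA was not tested. Calr, the chaperone calreticulin, was at 173 and 166 FPKM in the WT pair, against 224 and 192 FPKM in KO replicates 1 and 2. Creld2, Dnajc3 and Pdia6 carry the element too and had differences of 0.01, 0.06 and 0.13 with overlapping groups. In the WT pair Pdia6, at 96.9 and 106 FPKM, was close to Canx, at 107 and 113 FPKM, so level alone does not set the 4 apart. The ERSE of Hsp90b1, Calr and Canx, whose groups lay apart, is shown with 10 bases on each side. It is read in the direction that starts with CCAAT, to be set beside that of Hspa5 above. The stretches lie at chr10:86705523-86705561 on the plus strand for Hsp90b1, the nearer to the start of its 2 elements, at chr8:84847065-84847103 on the plus strand for Calr, and at chr11:50325790-50325828 on the minus strand for Canx.
Hsp90b1: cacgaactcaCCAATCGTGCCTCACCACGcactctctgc
Calr: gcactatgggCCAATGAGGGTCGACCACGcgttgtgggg
Canx: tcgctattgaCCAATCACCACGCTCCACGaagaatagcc

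**Figure D5:**
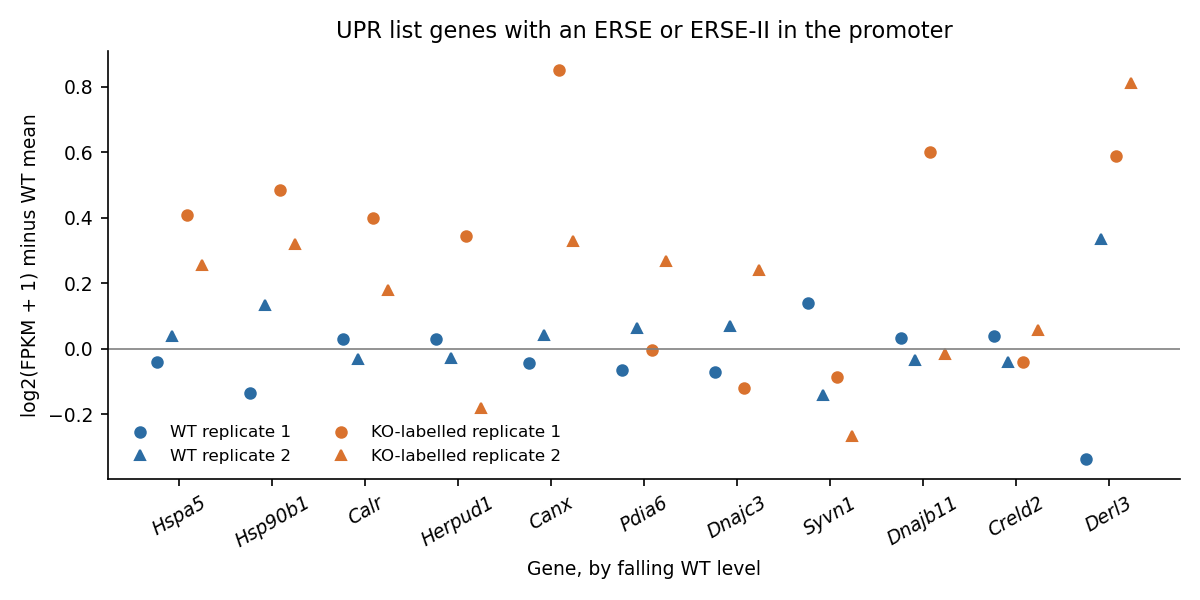
The log2(FPKM + 1) value of each library minus the WT mean, for the 11 tested pathway genes with an ERSE or ERSE-II in the promoter, ordered by WT level. Both KO-labelled libraries lie above WT for Hspa5, Hsp90b1, Calr and Canx, and for Derl3, whose direction the filter set, while Creld2 and Syvn1 overlap WT.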

How the data were processed

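RNA of sorted AT2 cells was depleted of ribosomal RNA and made into stranded libraries, per the labels' protocols. Build mm10 and the tools HISAT2 2.0.4, cutadapt 1.9.3, Cufflinks and Cuffdiff 2.2.1 come from the submitters' processing notes, and their parameters are not given in the sources here. The deposited FPKM values are the authors' per-library values, per the file headers. The deposited counts are estimated counts that need not be whole. Within each library they are multiples of 1 constant, and division by it made 91.0% to 92.6% of the positive values whole within 0.05. These recovered fragments, rounded for the count tests, gave CPM and the exact Clopper-Pearson intervals, covering only counting error.

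Groups were compared, KO-labelled minus WT with 2 libraries each, by limma's moderated test with a mean-variance trend on log2(FPKM + 1) (R 4.3.3 and limma 3.58.1), over the 11055 genes with at least 1 FPKM in at least 2 libraries, with Benjamini-Hochberg adjustment at 0.05. This scale understates changes of low genes. Alternatives on fragments were DESeq2 1.42.0 and the quasi-likelihood test of edgeR 4.0.16 with TMM scaling. The procedure was tested on simulated counts that gave all genes the same spread. Of simulated 2-fold changes limma recovered 10%, edgeR 18% and DESeq2 16%, and of 4-fold changes 70%, 84% and 76%. The largest FPKM fold among the 10 genes was 1.41, for Ddit3, so changes of their size would mostly be missed. The members and lists were chosen with earlier results of these data known. Text genes are the 10 members, Fbxo45 and Fbxo46, up to 4 genes per pathway list by smallest unadjusted p and the 2 highest of each marker list; others are named for a promoter element or as stated. The comparison of genes by promoter element, and the counts without Derl3, were added after the data were examined. March6 and Fam8a1 of the pathway lists, Chil3 of the macrophage markers and Cfap126 of the ciliated cell markers matched no row. Coordinates are from GENCODE M21 (GRCm38), promoters from RefSeq.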

Additional observations from a re-analysis of the deposited data

How the results depend on the processing

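No alternative brought any of the 10 genes past the threshold, in either direction. The count of all genes past it was 0 with limma on all 4 libraries, 7 with DESeq2 and 5 with edgeR and no filter; leaving out 1 library gave 0 to 134 calls, the 134 without KO replicate 2 and 3 without WT replicate 2. Hspa5, Atf4, Eif2ak3 and Dnajb9 kept their direction in all 18 alternatives. Ern1 was -0.023 with edgeR, with or without the filter, -0.018 with DESeq2 and with its size factors in edgeR, and -0.014 with limma on CPM, where Xbp1 was -0.059. Herpud1 was -0.0054 with equal upper quartiles, -0.015 with quantile normalization, -0.10 with edgeR with or without the filter, -0.093 with DESeq2 and with its size factors in edgeR, and -0.091 with limma on CPM. Leaving out 1 library gave -0.14 to 0.87 for Ddit3 (both without a KO-labelled library), -0.18 to 0.35 for Herpud1, -0.39 to 0.22 for Sdf2l1 and -0.15 to 0.015 for Atf6. The opposite sign came without KO replicate 1 for Ddit3, Herpud1 and Sdf2l1, and without WT replicate 2 for Sdf2l1 (0.10) and Atf6. The cause of these changes was not tested.

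The median of the 10 genes was 0.14 with equal upper quartiles, 0.16 with quantile normalization, 0.10 with edgeR and with edgeR with no filter, 0.11 with DESeq2 and with its size factors in edgeR, and 0.086 with limma on CPM; leaving out 1 library gave 0.16 to 0.25. It stayed above 0 in all 18 alternatives. The median over all tested genes moved too, from -0.043 with equal upper quartiles to 0.085 with equal FPKM totals (0.03 in the main fit). A value of 0 is therefore not the background in each setting. The median of the ATF6 arm was 0.05 to 0.19 in the 18 alternatives with Derl3 included, whose direction the filter set. Without Derl3 it was taken only in the main fit (0.13) and with edgeR (0.04). The medians of the other 7 lists took both signs. Without KO replicate 2, a fit with 1 KO-labelled library, the log2 differences of Sec61b, Selk and Man1b1 were -1.04, -1.45 and 1.24. With the replicate block no gene was called and the median of the 10 genes was unchanged at 0.23; same-numbered libraries did not deviate together (correlation of deviations 0.026 across genes), and the labels give no pairing. The shallowest library, WT replicate 1, allows up to 0.72 CPM at a count of 0 (3 fragments) and limits Ddit3 and Sdf2l1 most.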
